A study of Mus musculus with 24 samples.

Results

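The regions described here are ATAC-seq peaks that lie more than 100 kb from any transcription start site (TSS) in the authors' deposited peak annotation and carry no identifier of a FANTOM enhancer there. Of the 71942 peaks in the deposited table of differential accessibility, 6155 met both conditions, which is 8.56% of them. They are called far distal peaks below and are set against 49093 nearer distal peaks, which lie more than 1 kb and at most 100 kb from a TSS and also carry no FANTOM identifier. The cells were macrophages grown from the bone marrow of 8- to 10-week-old male C57BL/6 mice in L-cell conditioned medium. ATAC-seq cuts open DNA with a transposase, so the number of reads in a peak measures how accessible that stretch of chromatin was. The experiment asked how a glucocorticoid and interleukin 4 (IL4) change open chromatin in macrophages, and whether the coactivator GRIP1, encoded by Ncoa2, alters those changes.

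LysM-Cre+/+, which drives a recombinase in myeloid cells, was present in every mouse. KO macrophages were GRIP1fl/fl and WT macrophages were GRIP1wt/wt. The 6 groups had 4 libraries each: KO with 10 ng/ml IL4, KO with 100 nM dexamethasone (Dex, a synthetic glucocorticoid), KO with vehicle, WT with IL4, WT with Dex and WT with vehicle. The titles give 24 h for every group, whereas the treatment label of the vehicle libraries gives 25 h. Separate mice or cultures behind the 4 libraries are not stated, so the p-values rest on the spread between libraries alone, which may be technical. Deletion by LysM-Cre is limited to cells that made the recombinase, and no source used here gives the share of cells that lost GRIP1.

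Distal open chromatin far from genes mostly consists of enhancers, which are bound by transcription factors and contact promoters through looping of the DNA. Long stretches without protein-coding genes, called gene deserts, often flank genes for developmental regulators and hold many such elements. In macrophages the lineage factor PU.1 opens enhancers together with C/EBP and AP-1 factors, IL4 acts there through STAT6, and glucocorticoids act through the glucocorticoid receptor, for which GRIP1 is a coregulator. The nearest gene named for a peak below is a label of position and does not show which gene the peak regulates.

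The distance label depended on the gene annotation. The deposited distances of the far distal peaks ran from 100009 bases to 2065.1 kb, with a median of 160.1 kb (quartiles 123.1 and 231.8 kb), and the peaks had 1740 different nearest genes. Of the 5884 members on chromosomes covered by a table of RefSeq start sites (GRCm38.p6), 2896 (49.2%) were over 100 kb from every start site in that table too. The other 2988 (50.8%) had one within 100 kb, in 2858 cases that of a long noncoding RNA (lncRNA) and in 130 that of a protein-coding gene. A RefSeq start site lay within 1 kb of 117 members, and 58 members contained one. Of the 5884, 32.9% lay inside a protein-coding gene, 11.5% inside an lncRNA gene only and 55.6% in neither, against 57.4%, 7.65% and 35.0% of nearer distal peaks. The members are therefore far from the start sites of the authors' annotation, and not from every annotated transcript.

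Start sites of lncRNAs lay inside some members, and most or all bases of the RefSeq windows shown here are peak sequence. This does not hold for every such window, since that of Gm31686 has 100 of its 300 bases in the peak. The windows below run from 250 bases before to 50 bases after the start site, from RefSeq (GRCm38.p6), and are written 5′ to 3′ along the strand of the lncRNA. They show a peak that rose strongly with IL4 (Gm30713, nearest listed gene Sipa1l2, chr8:125385634-125385933, plus strand), one that rose with Dex in WT (Gm36884, nearest listed gene Lrig3, chr10:125744770-125745069, minus strand), one that fell with Dex (Gm30986, nearest listed gene 5330413P13Rik, chr2:131744086-131744385, plus strand), one that fell with IL4 in WT (Gm52636, nearest listed gene Ctso, chr3:81629375-81629674, plus strand) and one with a smaller rise with Dex in WT (Gm45805, nearest listed gene Irf2bp2, chr8:126758304-126758603, minus strand). They were chosen after the values of these peaks had been seen. All 300 bases lie in the peak for Gm30713 and Gm30986, against 288 for Gm36884, 274 for Gm45805 and 259 for Gm52636. Capitals mark matches on either strand to TGANTCA (AP-1), GGAAGT (the core bound by PU.1 and other ETS factors) or TTGCNNAA (C/EBP).
Gm30713: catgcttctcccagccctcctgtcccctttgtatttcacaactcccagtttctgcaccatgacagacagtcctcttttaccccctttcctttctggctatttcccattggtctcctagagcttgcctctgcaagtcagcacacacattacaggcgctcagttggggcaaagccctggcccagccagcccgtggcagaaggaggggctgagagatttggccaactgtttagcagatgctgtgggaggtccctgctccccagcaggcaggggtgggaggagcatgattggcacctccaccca
Gm36884: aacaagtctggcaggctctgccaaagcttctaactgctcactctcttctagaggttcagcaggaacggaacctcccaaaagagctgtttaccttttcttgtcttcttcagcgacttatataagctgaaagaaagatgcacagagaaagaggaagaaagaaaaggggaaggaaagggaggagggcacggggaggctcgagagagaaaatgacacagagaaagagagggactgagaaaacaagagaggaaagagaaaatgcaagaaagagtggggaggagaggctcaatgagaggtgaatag
Gm30986: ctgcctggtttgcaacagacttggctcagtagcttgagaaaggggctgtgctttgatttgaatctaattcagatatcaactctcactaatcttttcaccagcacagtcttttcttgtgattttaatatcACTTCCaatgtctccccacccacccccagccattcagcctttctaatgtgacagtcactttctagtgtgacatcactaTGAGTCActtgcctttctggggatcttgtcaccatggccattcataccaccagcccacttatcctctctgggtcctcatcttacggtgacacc
Gm52636: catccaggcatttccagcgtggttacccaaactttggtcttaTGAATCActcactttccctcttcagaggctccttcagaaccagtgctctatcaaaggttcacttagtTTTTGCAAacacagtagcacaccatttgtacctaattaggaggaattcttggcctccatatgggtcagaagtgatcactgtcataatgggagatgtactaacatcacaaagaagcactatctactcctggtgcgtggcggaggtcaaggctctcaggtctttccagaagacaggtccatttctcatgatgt
Gm45805: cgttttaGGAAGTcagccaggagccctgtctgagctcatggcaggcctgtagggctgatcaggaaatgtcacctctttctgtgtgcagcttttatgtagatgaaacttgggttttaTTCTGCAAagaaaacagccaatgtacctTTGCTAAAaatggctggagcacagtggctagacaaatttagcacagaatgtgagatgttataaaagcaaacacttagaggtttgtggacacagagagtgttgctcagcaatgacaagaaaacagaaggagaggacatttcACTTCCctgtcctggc

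The Gm30713 and Gm36884 windows held no match to these motifs. Gm30986 had AP-1 and ETS matches, Gm52636 had AP-1 and C/EBP matches and Gm45805 had 2 ETS and 2 C/EBP matches, of which the ETS match at bases 8 to 13 of the window lies outside the peak. Among 32807 RefSeq windows of the same length, TGANTCA occurred in 7.82%, GGAAGT in 23.8% and TTGCNNAA in 10.8%, and matches of different motifs may share bases. Among the 62 windows whose start site lay in a far distal peak the shares were 12.9%, 33.9% and 21.0%. The full palindromic glucocorticoid receptor element occurred in 0 of these 62 windows and in 0.476% of all windows, and the palindrome with the spacing bound by STAT6 in 4.84% and 6.94%. A match is a description of letters and was not tested against the accessibility values.

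The peaks behind these windows differed in their response. The Gm30713 peak (chr8:125385525-125386032) had 16.4, 15, 19.3 and 17.3 CPM (read counts scaled to library size by TMM) in WT IL4 libraries, against 3, 2.91, 5.02 and 3.5 CPM in WT vehicle libraries. All 4 IL4 libraries were above all 4 vehicle libraries, with a log2 fold change of 2.06 ± 0.13 (SE) in KO and 2.24 ± 0.13 (SE) in WT. The Gm36884 peak had 7.81, 7.57, 7.47 and 5.83 CPM in WT Dex libraries, against 3.76, 2.91, 3.42 and 3.19 CPM in WT vehicle libraries, with no overlap and a log2 fold change of 1.06 ± 0.15 (SE). The Gm30986 peak fell with Dex by a log2 fold change of -0.75 ± 0.24 (SE) in WT and rose with IL4 by 0.89 ± 0.20 (SE), and the Dex call was lost without WT Dex replicate 3 or WT vehicle replicate 1, 3 or 4 (adjusted p up to 0.0987). The Gm52636 peak fell with IL4 in WT by a log2 fold change of -0.93 ± 0.18 (SE), and the Gm45805 peak rose with Dex in WT by 0.42 ± 0.11 (SE). Each of these had an adjusted p of at most 0.0216 by edgeR's quasi-likelihood test with Benjamini-Hochberg adjustment over 130103 tested peaks, the test used throughout.

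The libraries held 5820149 to 21939330 counts in all peaks, the lowest being WT Dex replicate 2, in which 2.57% of peaks had no count. In a principal component analysis of the far distal peaks, IL4 libraries stood apart on the first component (51.0% of the variance) and KO libraries from WT on the third (6.63%). Promoter peaks of macrophage marker genes were present for 12 of 12 genes, and their summed level moved with treatment: 324.9 to 349.7 CPM with IL4, 366.2 to 421.3 with Dex and 356.2 to 385.4 with vehicle in KO, and 331.2 to 341.1, 397.7 to 437.2 and 357.1 to 386.7 CPM in WT in the same order. Those of erythroid and megakaryocyte genes summed to 77.9 to 93.9 CPM with Dex, against 73.3 to 75.4 CPM with vehicle in KO, and 77.3 to 88.7 CPM with Dex, against 69.2 to 76.7 CPM with vehicle in WT. The part of these shifts in the results was not tested. Promoter peaks were also present for 8 of 10 neutrophil genes, with those of Elane and Mpo absent, 3 of 6 dendritic cell genes, 4 of 6 B cell genes, 2 of 9 T and NK cell genes, 2 of 7 stromal genes, 2 of 5 mast cell genes and 4 of 7 erythroid and megakaryocyte genes. Those of neutrophil genes summed to 55.6 to 74.5 CPM with Dex, against 42.9 to 62.1 CPM with vehicle in KO. In WT the sums were 58.5 to 73.8 and 50.5 to 62.4 CPM. For dendritic cell genes the sums with Dex and vehicle were 30.9 to 34.4 and 26.55 to 30.1 CPM in KO. In WT they were 28.7 to 33.6 and 27.2 to 29.8 CPM, and the part of these levels in the results was not tested. In bulk cells a smaller number of cells of a type and less open chromatin per cell cannot be told apart.

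IL4 raised accessibility at many more far distal peaks than it lowered, and in a larger share than among nearer distal peaks. In KO, 1750 far distal peaks rose and 608 fell with IL4, which is 28.4% and 9.88% of the members, and in WT 1900 rose and 733 fell, which is 30.9% and 11.9%. Among all tested peaks 17% rose and 13.9% fell in KO, and 19.3% rose and 16.1% fell in WT. The 130103 tested peaks also include peaks outside the deposited table of 71942. Far and nearer distal peaks come from that table and were at most 999 bases long. Nearer distal peaks are thus the closer comparison, and the part of peak length in the shares of all tested peaks was not tested. Among nearer distal peaks 23.1% rose and 12.3% fell in KO, and 25.9% rose and 13.6% fell in WT. The median log2 fold change with IL4 was 0.13 over far distal and 0.02 over nearer distal peaks in KO, and 0.15 and 0.05 in WT. Of the 6155 members, 750 rose and 80 fell at least 2-fold in KO, and 844 rose and 114 fell in WT. Over all tested peaks, 7.12% rose and 1.07% fell at least 2-fold in KO, and 8.45% and 1.56% in WT.

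Dex moved the far distal peaks less often and more evenly, with somewhat more falls than rises, although in KO this order turned without KO vehicle replicate 2 (8.09% higher and 7.91% lower). In KO, 589 rose and 681 fell, which is 9.57% and 11.1% of the members, and in WT 678 rose and 842 fell, which is 11% and 13.7%. Among all tested peaks 6.97% rose and 6.63% fell in KO, and 8.56% rose and 8.08% fell in WT. Among nearer distal peaks 8.64% rose and 8.83% fell in KO, and 10.2% rose and 10.8% fell in WT. The median log2 fold change with Dex was -0.04 over far distal peaks in each genotype, and -0.01 in KO and 0.00 in WT over nearer distal peaks. Of the 6155 members, 118 rose and 191 fell at least 2-fold in KO, and 145 rose and 220 fell in WT. Over all tested peaks, 0.995% rose and 1.69% fell at least 2-fold in KO, and 1.33% and 2.09% in WT. The Dex and IL4 comparisons of a genotype share their 4 vehicle libraries.

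**Figure D1:**
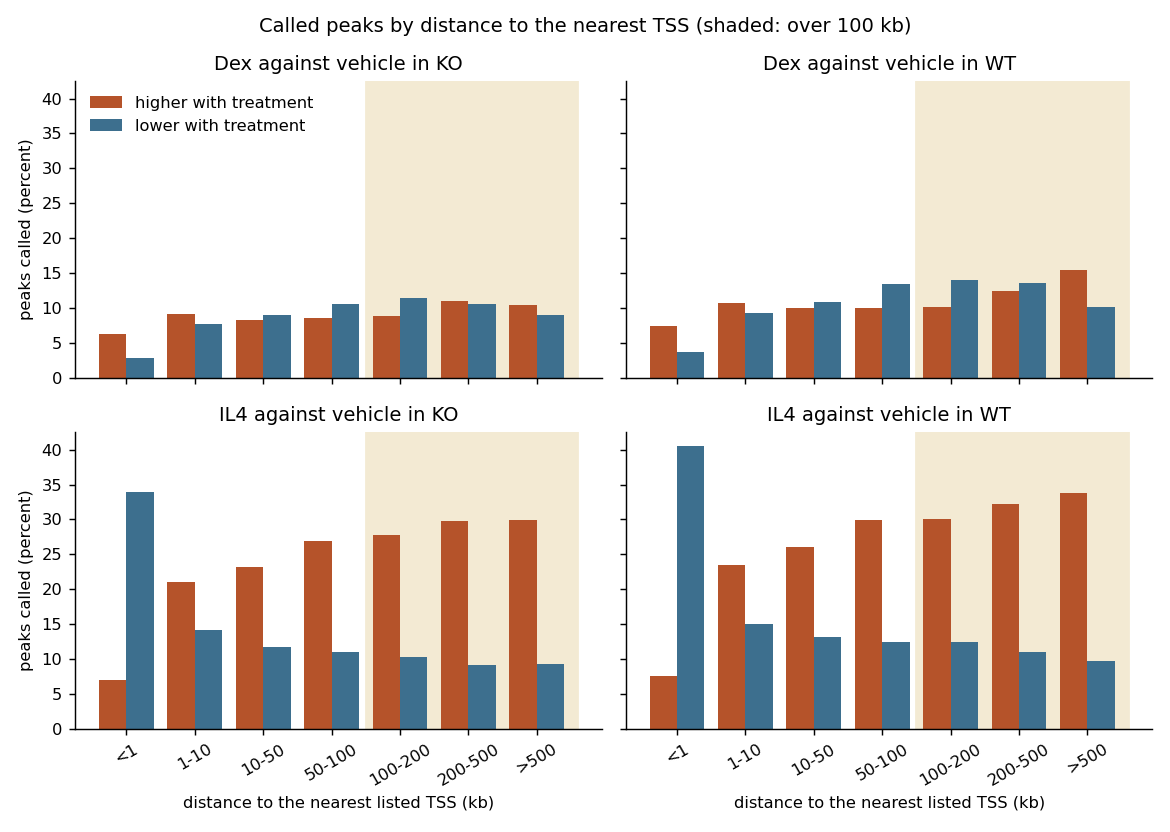
Percent of peaks called higher or lower with Dex or IL4 against vehicle (adjusted p below 0.05), by distance to the nearest TSS in kb, with the bins over 100 kb shaded and KO panels beside WT panels. In WT the share higher with IL4 was 7.56% within 1 kb and 33.8% over 500 kb, and the share lower was 40.5% and 9.71%.

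The share of peaks that rose with IL4 in WT was 7.56% within 1 kb, 23.5% at 1 to 10 kb, 26.1% at 10 to 50 kb, 30.0% at 50 to 100 kb, 30.1% at 100 to 200 kb, 32.2% at 200 to 500 kb and 33.8% over 500 kb, as the plot by distance shows. The largest step lay at the promoters and not at 100 kb. The share lower with IL4 in WT was 40.5% within 1 kb, 15.0% at 1 to 10 kb and 9.71% over 500 kb. Far distal peaks were also weaker, with a median of 3.03 CPM over all libraries, against 3.70 CPM for nearer distal peaks, and shorter, with medians of 477 and 497 bases. Within equal ranges of mean level the shares higher with IL4 in WT were 41.5% for far and 40.0% for nearer distal peaks up to 2 CPM, 27.4% and 23.8% at 2 to 3 CPM, 27.2% and 23.3% at 3 to 5 CPM, 29.3% and 24.2% at 5 to 10 CPM, and 23.3% and 20.1% above 10 CPM. The far distal share was the larger in each of the 5 ranges, although peaks are not replicates of a condition and the difference in shares was not tested. The mean level includes the IL4 libraries, so these ranges do not equalize the level with vehicle. In WT vehicle, 6.84% of far and 3.95% of nearer distal peaks were below 1 CPM. Weak peaks can pass the filter on counts through the group where they are open, and the part of this in the shares was not tested.

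Members over 100 kb from every RefSeq start site responded much as the whole set did. Among these 2896 peaks 28.7% rose and 9.84% fell with IL4 in KO, and 30.7% rose and 11.3% fell in WT. With Dex 9.15% rose and 11.2% fell in KO, and 10.4% rose and 13.9% fell in WT. The 786 peaks over 100 kb that do carry a FANTOM identifier, which are no members, were stronger, with a median of 6.75 CPM, and 28.0% rose and 21.5% fell with IL4 in WT.

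The summed signal followed the same direction. Far distal peaks took 3.13 ± 0.059% of all peak counts in KO IL4 libraries, 2.67 ± 0.028% in KO Dex libraries and 2.75 ± 0.052% in KO vehicle libraries (SD, n = 4 each). In WT they took 3.18 ± 0.065% with IL4, 2.64 ± 0.046% with Dex and 2.74 ± 0.035% with vehicle (SD, n = 4 each). Every IL4 library of a genotype was above every vehicle library, with ratios of group means of 1.14 in KO and 1.16 in WT. The ratios for Dex were 0.971 in KO and 0.964 in WT. Nearer distal peaks took 28.6% with IL4, 25.96% with Dex and 26.4% with vehicle in KO, and 29.2%, 25.8% and 26.4% in WT. For every 100 counts in nearer distal peaks, far distal peaks held 11 ± 0.165 with IL4, 10.3 ± 0.0889 with Dex and 10.4 ± 0.101 with vehicle in KO, and 10.9 ± 0.137, 10.2 ± 0.155 and 10.4 ± 0.131 in WT (mean ± SD, n = 4 each).

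**Figure D2:**
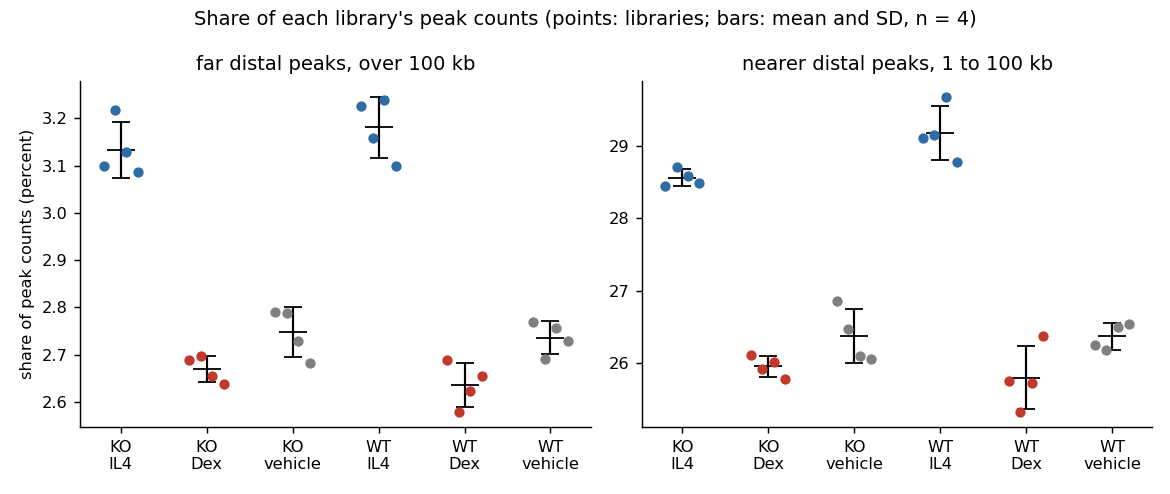
Share of each library's peak counts, in percent, that fell in far distal peaks and in nearer distal peaks, with libraries as points and bars for the mean and SD of 4 libraries. In far distal peaks the IL4 libraries average 3.13% in KO and 3.18% in WT, above all Dex and vehicle libraries.

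The largest Dex rises had little signal with vehicle. The peak nearest Hs6st1, which encodes a heparan sulfate sulfotransferase, at chr1:35816016-35816433 and 252 kb upstream, had 11.8, 14, 16.2 and 13.7 CPM in WT Dex libraries, against 0.922, 0.447, 0.748 and 0.618 CPM in WT vehicle libraries. In KO it had 6.47, 11.1, 12.1 and 14 CPM with Dex, against 1.24, 0.355, 1.31 and 0.916 CPM with vehicle. The groups did not overlap in either genotype, and the log2 fold changes were 3.67 ± 0.23 (SE) in KO (adjusted p 1.65e-18) and 4.28 ± 0.23 (SE) in WT (adjusted p 3.48e-21). With IL4 the WT log2 fold change was -0.32 ± 0.44 (SE) and did not pass the test.

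A peak inside Mctp2, a calcium-binding membrane protein gene (chr7:72162167-72162905), had 11.1, 10.2, 10.8 and 6.81 CPM in WT Dex libraries, against 0.999, 0.782, 0.748 and 0.927 CPM in WT vehicle libraries. Its log2 fold changes with Dex were 3.12 ± 0.23 (SE) in KO and 3.42 ± 0.22 (SE) in WT. A peak 132 kb downstream of Kcnj2, an inwardly rectifying potassium channel gene (chr11:111197448-111197923), had 9.25, 9.77, 9.99 and 8.29 CPM in KO Dex libraries, against 1.37, 1.63, 1.57 and 1.28 CPM in KO vehicle libraries. Its log2 fold changes with Dex were 2.65 ± 0.17 (SE) in KO and 2.88 ± 0.17 (SE) in WT, again with every Dex library above every vehicle library. The peak 109.6 kb downstream of Trpm3, a cation channel gene, at chr19:23025376-23025829, had 5.56, 4.62, 5.42 and 5.09 CPM in WT Dex libraries, against 0.615, 0.335, 0.534 and 0.618 CPM in WT vehicle libraries, and log2 fold changes of 2.81 ± 0.24 (SE) in KO and 3.26 ± 0.25 (SE) in WT. That peak lies in the interval between Trpm3 and Klf9, a glucocorticoid-induced transcription factor gene, and a member assigned to Klf9 follows it 103 kb upstream of the Klf9 start. Redrum, an lncRNA gene, had a member whose log2 fold changes with Dex were 3.28 ± 0.27 (SE) in KO and 2.78 ± 0.25 (SE) in WT.

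A group of 3 of the largest WT Dex rises lay beside Klra1, a member of the Ly49 family of lectin-like receptors of natural killer cells. The peak at chr6:130770467-130771183 had 3.68, 4.88, 4.88 and 5.15 CPM in KO Dex libraries and 8.87, 5.54, 7.88 and 7.05 CPM in WT Dex libraries. With vehicle it had 0.746, 0.497, 0.654 and 0.733 CPM in KO and 0.768, 0.894, 1.18 and 1.13 CPM in WT. Dex libraries exceeded vehicle libraries in both genotypes, and each WT Dex library exceeded each KO Dex library. The log2 fold changes with Dex were 2.86 ± 0.24 (SE) in KO and 2.93 ± 0.20 (SE) in WT, while KO against WT under Dex was -0.67 ± 0.14 (SE) (adjusted p 0.00163, or 0.0524 by DESeq2). The peaks at chr6:130812979-130813806 and chr6:130604712-130605011 rose with Dex in WT by log2 fold changes of 3.38 ± 0.23 (SE) and 3.05 ± 0.41 (SE). Klra genes are near-identical copies of each other, so the authors' counting could have split or pooled reads between copies and these values are uncertain. Promoters of T and NK cell markers summed to 35.0 to 42.9 CPM with Dex, against 35.6 to 40.2 CPM with vehicle in KO, and 37.9 to 44.9 CPM with Dex, against 37.0 to 38.3 CPM with vehicle in WT, from the promoters of Klrb1c and Gata3 alone, and their part in these values was not tested.

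Among the largest Dex falls were peaks with low levels throughout. The peak 164 kb downstream of Nuak1, a kinase gene, at chr10:84276177-84276356, had 0.633, 0.369, 0.246 and 0.0933 CPM in WT Dex libraries, against 1.38, 1.56, 1.5 and 1.55 CPM in WT vehicle libraries. Its log2 fold changes with Dex were -1.14 ± 0.32 (SE) in KO and -2.26 ± 0.37 (SE) in WT, with no overlap of Dex and vehicle in either genotype. The peak 349 kb upstream of Cnksr2, a scaffold gene of Ras signalling (chrX:158391607-158391921), had 0.199, 0.206, 0.315 and 0.415 CPM in KO Dex libraries, against 1.99, 1.77, 1.31 and 1.56 CPM in KO vehicle libraries, with log2 fold changes of -2.46 ± 0.35 (SE) in KO and -1.89 ± 0.30 (SE) in WT. A peak inside Magi2, a scaffold gene of cell junctions (chr5:19576529-19576966), had 0.298, 0.963, 0.472 and 0.592 CPM in KO Dex libraries, against 2.61, 4.19, 2.48 and 3.02 CPM in KO vehicle libraries. It fell with Dex by log2 fold changes of -2.38 ± 0.31 (SE) in KO and -2.13 ± 0.27 (SE) in WT.

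At several peaks that were lower under treatment, replicate 1 was the highest of the WT vehicle libraries. The peak 484 kb downstream of Inhba, which encodes a subunit of activin A, at chr13:16498076-16498614, had 0.915, 1.29, 0.492 and 0.513 CPM in WT Dex libraries 1 to 4, against 6.14, 2.46, 1.92 and 2.06 CPM in WT vehicle libraries 1 to 4. The peak 278 kb from Hgf, which encodes hepatocyte growth factor, had 8.6, 3.22, 3.16 and 2.51 CPM in WT IL4 libraries, 5.56, 1.85, 1.4 and 1.07 CPM in WT Dex libraries and 12.8, 4.81, 4.38 and 3.09 CPM in WT vehicle libraries. Replicate 1 was the highest WT library under each treatment at the Hgf peak, where the log2 fold changes with Dex were -2.39 ± 0.58 (SE) in KO (adjusted p 0.00817) and -1.43 ± 0.51 (SE) in WT (adjusted p 0.0616). In KO the Hgf peak had 1.59, 1.17, 0.944 and 1.24 CPM with Dex, against 6.09, 7.1, 6.02 and 6.23 CPM with vehicle, with no library standing apart.

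The Basp1 peak (chr15:25129695-25130302), beside a gene for a membrane-bound growth protein, had 0.496, 0.936, 0.51 and 0.466 CPM in WT IL4 libraries, 1.76, 0.739, 0.656 and 0.56 CPM in WT Dex libraries and 6.45, 3.46, 2.78 and 1.96 CPM in WT vehicle libraries. It fell with both treatments in both genotypes, by log2 fold changes of -2.07 ± 0.39 (SE) with IL4 and -1.45 ± 0.34 (SE) with Dex in KO, and -2.56 ± 0.41 (SE) and -2.03 ± 0.37 (SE) in WT. The predicted gene Gm1720 had a peak (chrX:166791065-166791441) that fell with IL4 in WT by -2.94 ± 0.66 (SE) on the log2 scale and with Dex by -2.67 ± 0.62 (SE), where WT Dex replicate 1 lay within the range of the vehicle libraries. The peak beside 1700016G22Rik (chr13:5537917-5538297) had 0.298, 0.894, 1.26 and 0.474 CPM in KO Dex libraries, against 1.86, 2.98, 2.75 and 2.84 CPM in KO vehicle libraries, and its log2 fold changes with Dex were -1.83 ± 0.31 (SE) in KO and -2.32 ± 0.35 (SE) in WT. Summed promoter levels of the 2 stromal markers with a peak, Col1a1 and Pdgfrb, were 13.1 to 16.1 CPM in KO IL4, 12.6 to 15.6 CPM in KO Dex and 11.99 to 17.3 CPM in KO vehicle libraries, and 13.8 to 17.9, 12.1 to 14.8 and 10.9 to 16.5 CPM in the WT groups in the same order. The promoters of Col1a2, Col3a1 and Pdgfra had no peak. The part of other cell types in these falls was not tested.

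The largest fold change with either treatment in each genotype was an IL4 rise at 1 peak. The peak 326 kb upstream of Mir3961, a microRNA gene, at chr13:83023869-83024711, had 9.76, 10.7, 9.69 and 9.78 CPM in WT IL4 libraries, against 0, 0.112, 0.427 and 0.515 CPM in WT vehicle libraries. In KO it had 6.23, 9.75, 9.29 and 9.7 CPM with IL4, against 0.995, 0.355, 0.916 and 0.367 CPM with vehicle. Every IL4 library was above every vehicle library, with log2 fold changes of 3.87 ± 0.24 (SE) in KO (adjusted p 1.86e-25) and 5.30 ± 0.27 (SE) in WT (adjusted p 3.04e-30). The vehicle level in WT was close to nothing, with no count in 1 library, so the size of the WT fold change is uncertain, and the difference between genotypes in the IL4 response, -1.43 ± 0.54 (SE), did not pass the test.

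The peak 213 kb upstream of Stxbp5, which encodes tomosyn, a regulator of vesicle release, at chr10:10113356-10114009, had 9.51, 10.2, 10.8 and 8.38 CPM in WT IL4 libraries, against 0.461, 0.559, 0.961 and 0.721 CPM in WT vehicle libraries. Its log2 fold changes with IL4 were 3.09 ± 0.21 (SE) in KO and 3.86 ± 0.22 (SE) in WT. The peak 186 kb upstream of Prok2, which encodes the secreted peptide prokineticin 2 (chr6:99912525-99913022), had 8.92, 10.3, 8.58 and 9.86 CPM in KO IL4 libraries, against 1.12, 0.639, 1.44 and 1.47 CPM in KO vehicle libraries, and log2 fold changes of 3.08 ± 0.19 (SE) in KO and 3.55 ± 0.19 (SE) in WT. At both peaks the 4 IL4 libraries lay far above the 4 vehicle libraries of the same genotype. The peak beside Mir7232 (chr6:81572095-81572935) reached 9.88, 19.6, 14.2 and 14.8 CPM in KO IL4 libraries, against 0.249, 1.28, 1.31 and 1.56 CPM in KO vehicle libraries.

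Other large IL4 rises lay inside Angpt1, which encodes a ligand of the Tie2 receptor (chr15:42498666-42499142), in Exoc4 upstream of Lrguk (chr6:33804816-33805237), beside 1190002N15Rik (chr9:94434850-94435085), beside Fam198b, a Golgi protein gene (chr3:79990575-79990856), and upstream of Diaph2, a formin gene (chrX:129480586-129480986). The Angpt1 peak had 4.3, 4.04, 4.18 and 3.35 CPM in WT IL4 libraries, against 0.307, 0.112, 0.32 and 0.309 CPM in WT vehicle libraries. Log2 fold changes with IL4 were 2.99 ± 0.27 (SE) in KO and 3.84 ± 0.33 (SE) in WT at Angpt1, and 3.03 ± 0.23 (SE) in KO and 3.74 ± 0.26 (SE) in WT at Lrguk. At these peaks the log2 fold changes with Dex in WT ranged from -0.24 to 0.38 and did not pass the test.

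The peak labelled with Olfr1507 (chr14:53039525-53039724) lies among T cell receptor variable segments, of which 20 were annotated within 100 kb. It had 0, 1.28, 0.443 and 0.626 CPM in KO IL4 libraries and 2.31, 2.17, 1.94 and 1.68 CPM in WT IL4 libraries, and 0 to 0.275 CPM in all vehicle libraries. Each WT IL4 library exceeded each KO IL4 library, and KO against WT under IL4 was -1.70 ± 0.36 (SE) on the log2 scale (adjusted p 0.00252). The rise with IL4 in KO, 2.25 ± 0.67 (SE), was lost without KO IL4 replicate 2, with an adjusted p of 0.136. Many variable segments resemble one another in sequence, so reads could have been split between them. Promoters of T and NK cell markers summed to 40.8 to 48.6 CPM with IL4, against 35.6 to 40.2 CPM with vehicle in KO, and 46.1 to 48.9 CPM with IL4, against 37.0 to 38.3 CPM with vehicle in WT, with the Cd3 promoters without a peak, and their part in this rise was not tested.

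**Figure D3:**
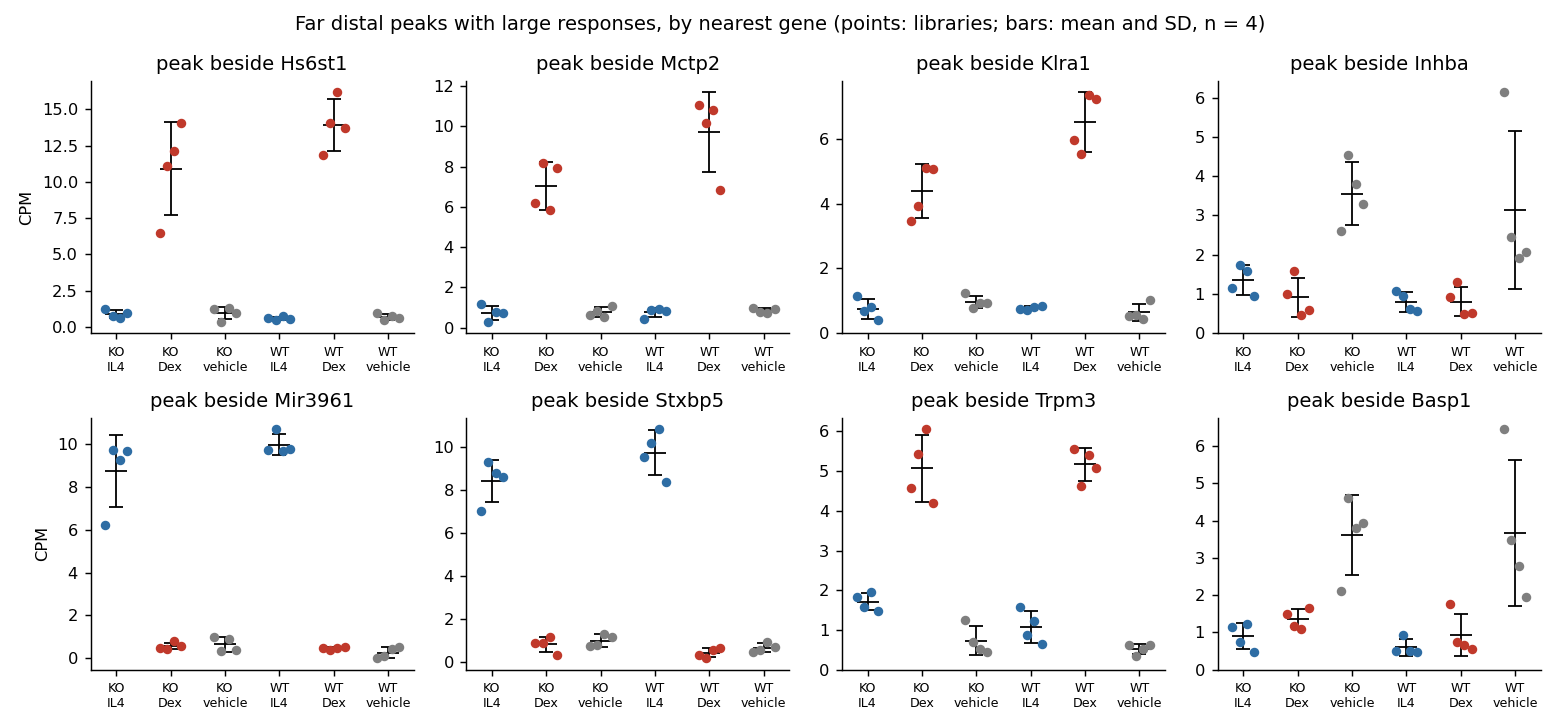
Levels in CPM of 8 far distal peaks with large responses, by nearest gene, in the 6 groups, with libraries as points and bars for the mean and SD of 4 libraries. At the Hs6st1 and Mctp2 peaks every Dex library is above every vehicle library, and at the Mir3961 and Stxbp5 peaks every IL4 library is.

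Set directly against Dex, IL4 gave higher accessibility at 2118 far distal peaks and lower at 911 in KO, which is 34.4% and 14.8%, and higher at 2256 and lower at 987 in WT, which is 36.7% and 16%. Over all tested peaks 42.3% were called in KO, 21.9% higher and 20.4% lower, and 45.1% in WT, 23.4% higher and 21.7% lower. Among nearer distal peaks 28.1% were higher and 19.0% lower in KO, and 29.9% and 19.6% in WT. A peak 258 kb downstream of Kcnj2 (chr11:111324533-111324834) had 3.97, 4.27, 5.71 and 4.66 CPM in WT IL4 libraries, against 0.563, 0, 0 and 0.14 CPM in WT Dex libraries, whereas the Kcnj2 peak given above was high with Dex. The log2 fold change of IL4 against Dex was 4.41 ± 0.33 (SE) at this peak and -2.52 ± 0.15 (SE) at the other, so peaks beside the same gene moved in opposite directions. A peak inside Ntm, a neural cell adhesion gene (chr9:29544537-29545100), had 1.74, 2.98, 2.96 and 2.89 CPM with IL4, against 0.211, 0, 0 and 0.14 CPM with Dex in WT. It rose with IL4 against vehicle in WT, by 2.35 ± 0.32 (SE), and fell with Dex, by -2.09 ± 0.60 (SE).

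Some members rose with both treatments. The peak 290.0 kb upstream of Slc7a11, which encodes the cystine and glutamate exchanger (chr3:50733341-50733845), had 7.77, 9.89, 10.4 and 8.01 CPM in WT IL4 libraries, 10.3, 14, 13.7 and 10.9 CPM in WT Dex libraries and 1.61, 1.34, 2.03 and 2.37 CPM in WT vehicle libraries. In KO the values were 9.21, 9.97, 7.34 and 8.99 CPM with IL4, 5.27, 11.1, 9.91 and 11.6 CPM with Dex and 1.74, 2.27, 1.83 and 2.02 CPM with vehicle. Both treatments stood clear of vehicle in both genotypes, with log2 fold changes of 2.14 ± 0.20 (SE) with IL4 and 2.27 ± 0.20 (SE) with Dex in KO, and 2.30 ± 0.21 (SE) and 2.69 ± 0.20 (SE) in WT. A peak inside Rad51b, assigned to 9430078K24Rik (chr12:79652029-79652524), had log2 fold changes of 2.53 ± 0.21 (SE) with IL4 and 1.14 ± 0.25 (SE) with Dex in KO, and 2.96 ± 0.20 (SE) and 1.31 ± 0.25 (SE) in WT. At the Trpm3 peak the IL4 values were 1.24 ± 0.30 (SE) in KO and 0.98 ± 0.35 (SE) in WT, where the call was lost without WT IL4 replicate 1 or WT vehicle replicate 2 (adjusted p up to 0.125).

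Members clustered beside a few genes. Klf4, a zinc finger transcription factor gene induced by IL4 in macrophages, and Maf, a leucine zipper transcription factor gene of macrophages, had 37 members each. Mir6388 had 32, Pde4d, a cyclic AMP phosphodiesterase gene, had 28 and 1700019E08Rik had 27. All 37 Klf4 members lay upstream, 100.7 to 600.9 kb from the start, on chromosome 4 between 55633102 and 56133593. With IL4, 11 rose and 4 fell in KO (against 17% and 13.9% of all tested peaks), and 14 rose and 6 fell in WT (against 19.3% and 16.1% of all tested peaks). With Dex, 9 rose and 2 fell in KO (against 6.97% and 6.63% of all tested peaks), and 12 rose and 3 fell in WT (against 8.56% and 8.08%). These shares of all tested peaks serve for the other loci and gene lists too.

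Neighbouring Klf4 peaks responded differently. The peak at chr4:55811596-55812433 had 21.2, 24.5, 22.1 and 23.8 CPM in WT IL4 libraries, 7.6, 9.23, 9.27 and 8.54 CPM in WT Dex libraries and 5.53, 7.15, 6.94 and 5.98 CPM in WT vehicle libraries. Its log2 fold changes with IL4 were 1.44 ± 0.11 (SE) in KO and 1.86 ± 0.12 (SE) in WT. The peak at chr4:56070258-56071163 rose with IL4 by 0.91 ± 0.12 (SE) in KO and 1.16 ± 0.11 (SE) in WT, and with Dex by 0.63 ± 0.12 (SE) and 0.52 ± 0.12 (SE). The peak at chr4:55778708-55779160 had 3.03, 3.32, 3.36 and 4.11 CPM in WT Dex libraries, against 5.84, 6.82, 8.22 and 5.87 CPM in WT vehicle libraries, with log2 fold changes of -0.92 ± 0.16 (SE) in KO and -0.90 ± 0.15 (SE) in WT. The peak at chr4:55955554-55956161 had the largest IL4 fall of the 37 in WT, at -1.42 on the log2 scale, and the one at chr4:55801686-55801850 the largest rise, at 2.26 ± 0.26 (SE).

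The 37 Maf members stretched over 918.5 kb of chromosome 8. With IL4, 7 rose and 7 fell in KO, and 7 rose and 12 fell in WT, and with Dex 3 rose and 6 fell in KO, and 6 rose and 7 fell in WT, where the IL4 rises in each genotype were near the 17% and 19.3% of all tested peaks. The peak at chr8:115391960-115392801 had 9.55, 10.3, 13.4 and 11.8 CPM in KO Dex libraries, against 19.3, 19.1, 18.2 and 20 CPM in KO vehicle libraries, and 14.8, 12.2, 10.2 and 8.68 CPM in WT Dex libraries, against 23.5, 21.8, 22.9 and 16 CPM in WT vehicle libraries. It fell with Dex by -0.76 ± 0.12 (SE) in KO and -0.91 ± 0.12 (SE) in WT and with IL4 by -0.42 ± 0.12 (SE) and -0.48 ± 0.11 (SE). Of the 28 Pde4d members, 7 rose and 3 fell with IL4 in KO (against 17% and 13.9% of all tested peaks), and 9 rose and 6 fell in WT (against 19.3% and 16.1%). With Dex 2 rose and 7 fell in KO (against 6.97% and 6.63%), and 2 rose and 10 fell in WT (against 8.56% and 8.08%), with a largest fall of -1.52 ± 0.13 (SE) in WT at chr13:108527030-108527730.

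The 32 Mir6388 members lie within a stretch of immunoglobulin heavy chain variable segments, of which RefSeq lists 31 between the first and the last member, and no pathway is implied by the label. With Dex, 10 rose and 0 fell in KO (against 6.97% and 6.63% of all tested peaks), and 11 rose and 3 fell in WT (against 8.56% and 8.08%). With IL4 4 rose and 6 fell in KO (against 17% and 13.9%), and 0 rose and 8 fell in WT (against 19.3% and 16.1%). The peak at chr12:115415724-115416014 had 0.895, 2.2, 2.12 and 1.96 CPM in KO Dex libraries, against 0.373, 0.213, 0.262 and 0.825 CPM in KO vehicle libraries, and 3.38, 3.14, 3.12 and 2.94 CPM in WT Dex libraries, against 0.384, 0.335, 0.641 and 0.825 CPM in WT vehicle libraries. Dex libraries were above vehicle libraries in both genotypes, with log2 fold changes of 2.12 ± 0.35 (SE) in KO and 2.52 ± 0.30 (SE) in WT. Many variable segments resemble one another in sequence, so their counts may be mixed. Promoters of B cell markers summed to 11.8 to 13.6 CPM with Dex, against 15.95 to 22.6 CPM with vehicle in KO, and 13.4 to 15.2 CPM with Dex, against 20.4 to 22.6 CPM with vehicle in WT, with those of Cd79a and Pax5 without a peak, and their part in these values was not tested.

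**Figure D4:**
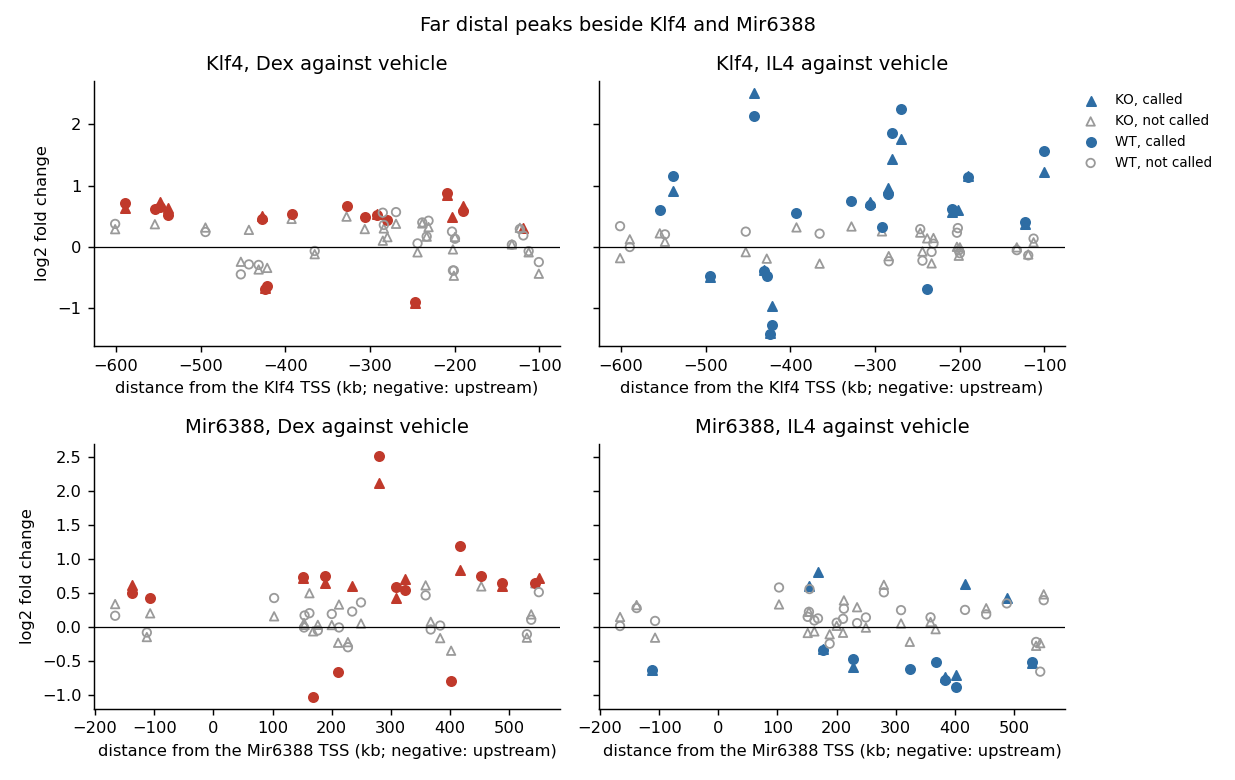
Log2 fold changes of the 37 Klf4 and 32 Mir6388 members against distance from the gene's start site in kb, with upstream distances negative, for Dex and IL4 against vehicle in KO and WT, with called peaks filled. Beside Mir6388 no WT member rose with IL4 and 11 rose with Dex.

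Close neighbours could be compared in direction only where both were called. Of 1918 pairs of adjacent members under 10 kb apart, both were called with IL4 in 376 pairs in KO and 437 in WT, and the directions matched in 318 and 372 of these. With Dex both were called in 124 pairs in KO and 173 in WT, and the directions matched in 109 and 143. In the other pairs at least 1 member was not called, and since rises outnumber falls with IL4, the matches are a description and were not set against a value for unrelated peaks.

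The gene lists used to group members by nearest gene were chosen with earlier results of these data known, and are described by counts only. Of 34 IL4 and STAT6 targets, 4 genes were the nearest gene of 42 members, of which 37 were the Klf4 peaks. Among the 42, 13 rose and 4 fell with IL4 in KO, and 16 rose and 7 fell in WT, or 40.5% and 54.8% called in all, against 31% and 35.4% of all tested peaks. Of the nearer distal peaks of this list, 46.6% were called with IL4 in KO and 54.6% in WT. Of 29 glucocorticoid receptor targets, 4 were the nearest gene of 13 members, of which 4 rose and 1 fell with Dex in KO and 3 rose and 1 fell in WT, against 13.6% and 16.6% of all tested peaks called in either direction. That is 38.5% of the 13 in KO and 30.8% in WT, against 38.2% of the list's nearer distal peaks in each genotype. Among the 13, a peak 132 kb upstream of Bcl6, a transcriptional repressor gene (chr16:24120860-24121371), had 11.2, 12.2, 12.7 and 13.6 CPM in KO Dex libraries, against 5.47, 5.18, 6.67 and 5.41 CPM in KO vehicle libraries, and 11.6, 13.3, 12.2 and 10.7 CPM in WT Dex libraries, against 5.99, 5.48, 5.55 and 4.74 CPM in WT vehicle libraries. It rose by 1.16 ± 0.13 (SE) in KO and 1.10 ± 0.13 (SE) in WT with Dex, and by 0.75 ± 0.14 (SE) and 0.72 ± 0.14 (SE) with IL4. The Klf9 member (chr19:23038027-23038772) rose with Dex by 0.95 ± 0.26 (SE) in KO and 1.47 ± 0.25 (SE) in WT, and the KO call was lost without KO vehicle replicate 2 (adjusted p 0.103). Beside Irs2, an adaptor gene of insulin signalling, the peak at chr8:11155954-11156702 rose with Dex by 1.01 ± 0.21 (SE) in WT, and the peak at chr8:11108344-11108608 fell by -0.73 ± 0.22 (SE), a call lost without WT vehicle replicate 2 (adjusted p 0.0519).

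Inflammatory cytokine and NF-kB genes were the nearest genes of only 8 members, for 3 of 28 genes. With IL4 1 of the 8 rose and 5 fell in KO (against 17% and 13.9% of all tested peaks), and 1 rose and 4 fell in WT (against 19.3% and 16.1%). With Dex 0 rose and 0 fell in KO (against 6.97% and 6.63%), and 0 rose and 1 fell in WT (against 8.56% and 8.08%). The peak 138 kb upstream of Il6, an inflammatory cytokine gene (chr5:29875376-29875926), had 1.57, 1.05, 1.12 and 1.77 CPM in WT IL4 libraries, against 3.76, 3.8, 3.42 and 3.09 CPM in WT vehicle libraries. The IL4 libraries were lower without overlap, with log2 fold changes of -1.27 ± 0.20 (SE) in KO and -1.38 ± 0.21 (SE) in WT, while the Dex values were -0.05 ± 0.17 (SE) and -0.01 ± 0.17 (SE) and did not pass the test. A peak downstream of Nfkbiz, a regulator gene of NF-kB (chr16:55698387-55698987), fell with IL4 by -0.69 ± 0.10 (SE) in KO and -0.83 ± 0.09 (SE) in WT. Upstream of Il12b, which encodes a subunit of IL12 and IL23, a peak (chr11:44164202-44164478) fell with Dex in WT by -0.99 ± 0.28 (SE), and the value in KO was -0.75 ± 0.29 (SE) (adjusted p 0.0733).

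Transcription factor genes of macrophages and blood accounted for 121 members beside 14 of 31 genes. With IL4 32 rose and 15 fell in KO, and 38 rose and 26 fell in WT, which is 38.8% and 52.9% called, against 31% and 35.4% of all tested peaks and 35.7% and 45.5% of nearer distal peaks of the list. With Dex 16 rose and 13 fell in KO, and 21 rose and 16 fell in WT, which is 24.0% and 30.6% called, against 13.6% and 16.6% of all tested peaks and 17.5% and 23.6% of nearer distal peaks of the list. A peak inside Etv6, an ETS repressor gene (chr6:134140801-134141225), had 5.79, 6.73, 6.02 and 5.96 CPM in WT IL4 libraries, against 1.15, 0.782, 1.07 and 1.75 CPM in WT vehicle libraries, with log2 fold changes of 1.55 ± 0.19 (SE) in KO and 2.36 ± 0.20 (SE) in WT. Beside Meis1, a homeobox gene of blood progenitors, a peak (chr11:18814158-18814618) rose with Dex by 0.94 ± 0.20 (SE) in KO and 1.14 ± 0.19 (SE) in WT. Developmental transcription factor genes that lie in gene deserts accounted for 68 members beside 19 of 42 genes, of which 17 rose and 8 fell with IL4 in KO and 22 rose and 9 fell in WT, or 36.8% and 45.6% called, against 31% and 35.4% of all tested peaks. With Dex 3 rose and 7 fell in KO and 4 rose and 11 fell in WT, or 14.7% and 22.1% called, near the 13.6% and 16.6% of all tested peaks. Upstream of Prdm1, which encodes the repressor BLIMP1 (chr10:44698396-44698973), a peak had 10.5, 11.2, 11.9 and 12.4 CPM in WT IL4 libraries, against 4.68, 4.47, 4.8 and 5.26 CPM in WT vehicle libraries, and rose by 1.03 ± 0.13 (SE) in KO and 1.25 ± 0.14 (SE) in WT. Inside Sox6 a peak (chr7:115530935-115531744) rose with IL4 by 0.84 ± 0.15 (SE) in WT and fell with Dex by -0.86 ± 0.18 (SE), and inside Nfib a peak (chr4:82315714-82315978) fell with IL4 by -1.23 ± 0.28 (SE) and with Dex by -1.63 ± 0.29 (SE).

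Long genes for adhesion and synapse proteins, which macrophages are not known for, accounted for 86 members beside 23 of 54 genes. With IL4 32 rose and 4 fell in KO, and 34 rose and 6 fell in WT, or 41.9% and 46.5% called, against 31% and 35.4% of all tested peaks. With Dex 5 rose and 13 fell in KO, and 11 rose and 21 fell in WT, or 20.9% and 37.2% called, against 13.6% and 16.6%. A peak beside Pcdh19, a protocadherin gene (chrX:133575054-133575927), had 9.51, 11, 9.99 and 7.82 CPM in WT IL4 libraries, 0.986, 1.11, 1.15 and 0.933 CPM in WT Dex libraries and 2.07, 1.9, 1.92 and 1.44 CPM in WT vehicle libraries. It rose with IL4 by 2.01 ± 0.19 (SE) in KO and 2.38 ± 0.18 (SE) in WT, and fell with Dex by -1.27 ± 0.30 (SE) and -0.86 ± 0.27 (SE), where the WT call was lost without WT Dex replicate 4 or WT vehicle replicate 1 (adjusted p up to 0.0752). Inside Pcdh7, another protocadherin gene, the peak at chr5:57851337-57851678 fell with Dex by -1.85 ± 0.30 (SE) in WT and the peak at chr5:57945411-57945748 rose by 0.90 ± 0.16 (SE). Inside Cntnap2, a neurexin family gene (chr6:45241014-45241690), a peak had 18.9, 18.7, 19 and 18.4 CPM in WT IL4 libraries, against 10.8, 9.39, 10 and 10.9 CPM in WT vehicle libraries, a rise of 0.86 ± 0.10 (SE). Among the 75 nearer distal peaks of the same list 25 rose and 6 fell with IL4 in KO and 32 rose and 5 fell in WT, while with Dex 4 rose and 19 fell in KO and 5 rose and 17 fell in WT, again with more IL4 rises and more Dex falls.

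The responses in both genotypes were alike in direction. With Dex, 437 members rose in both, which is 74.2% of those that rose in KO and 64.5% of those that rose in WT, and 489 fell in both, 71.8% and 58.1%. With IL4, 1495 rose in both, 85.4% and 78.7%, and 457 fell in both, 75.2% and 62.4%. None was called in opposite directions. Nearer distal peaks gave like shares, with 73.2% and 61.9% of Dex rises and 87.3% and 77.9% of IL4 rises shared. Over the 6155 members the log2 fold changes in KO and WT correlated at 0.824 for Dex and 0.914 for IL4, against 0.803 and 0.912 over nearer distal peaks, given as a description, since peaks share their libraries and low peaks share their depth. The difference between genotypes itself, tested as an interaction, was called at 0 members for Dex and 0 for IL4 by edgeR and also by DESeq2, where 0% and 0.00231% of all tested peaks were called by edgeR. At an unadjusted p below 0.05 by edgeR there were 249 members (4.05%) for Dex and 274 (4.45%) for IL4. Over all 130103 tested peaks there were 4498 for Dex and 5336 for IL4, so the members were near the background. The absence of calls does not show that the genotypes responded alike.

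**Figure D5:**
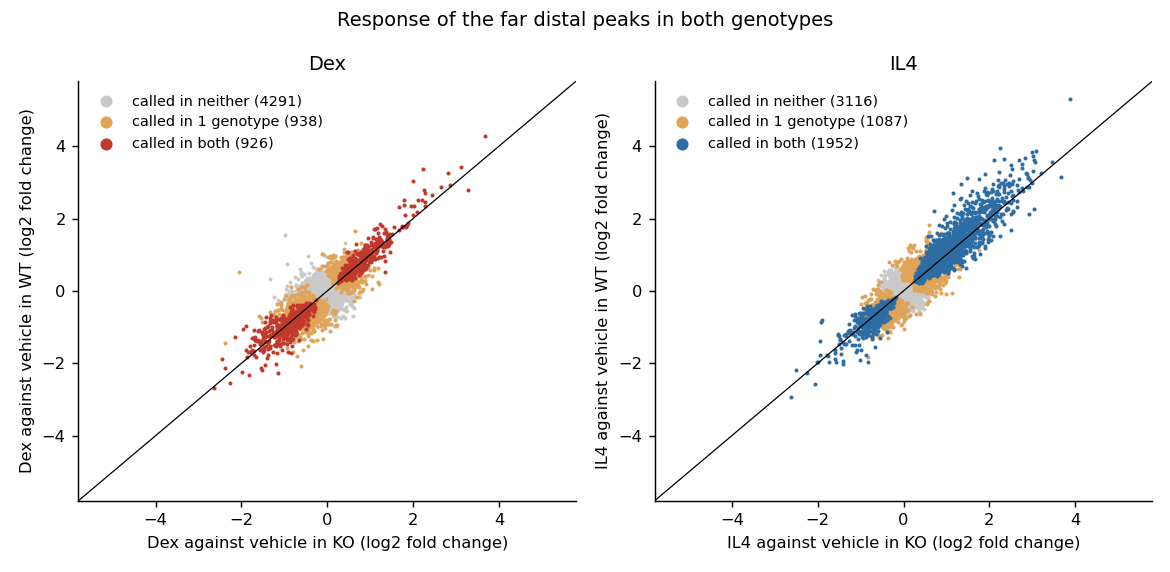
Log2 fold change with Dex and with IL4 in KO on the horizontal and in WT on the vertical axis, 1 point per far distal peak, coloured by the number of genotypes in which it was called. For IL4, 1495 peaks rose and 457 fell in both genotypes, and for Dex 437 rose and 489 fell in both.

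KO and WT differed at few far distal peaks. Under IL4 60 members were higher and 43 lower in KO, against 0.473% and 0.368% of all tested peaks, under Dex 51 were higher and 43 lower, against 0.436% and 0.517%, and under vehicle 42 were higher and 20 lower, against 0.304% and 0.312%. These are 0.975% and 0.699% of members under IL4, 0.83% and 0.699% under Dex, and 0.682% and 0.325% under vehicle. Among nearer distal peaks the shares were 0.505% and 0.544% under IL4, 0.546% and 0.638% under Dex, and 0.371% and 0.440% under vehicle. In all, 160 of the 6155 members were called in at least 1 of the 3 comparisons and 37 in all 3. Each of the 37 had the same sign under the 3 treatments. Counts of this kind are not given for nearer distal or all tested peaks, so they are not read as particular to far distal peaks.

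These 160 members were not spread evenly over the genome. Chromosome 15 held 31 of them among its 371 members, chromosome 1 held 27 of 520 and the X chromosome 17 of 149. Grouping called members less than 2 Mb apart gave 69 segments, of which the 10 with at least 4 called members held 83 of the 160 (51.9%) and 236 of the 6155 members (3.83%). The segments were drawn around called members and kept by the number of these, so a high share in them is built in. These shares and the counts by chromosome are a description, and were not set against the same counts over other peaks. The segment with most, on chromosome 15 from 50479865 to 54121066 with Trps1 and Ext1, held 17 called members of 62. On the X chromosome, 14 of 19 members between 166805568 and 170881265 were called, all higher in KO. On chromosome 1 a segment from 13256160 to 17414319 that includes Ncoa2 held 7 called members of 23. Whether the genotypes also differ in linked stretches of their genomes was not tested, and a difference of GRIP1 cannot be told apart from such stretches in these groups.

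The member inside Ncoa2 itself (chr1:13256160-13256636) was lower in KO. It had 3.6, 3.05, 2.88 and 2.84 CPM in KO vehicle libraries, against 6.3, 7.49, 7.37 and 6.39 CPM in WT vehicle libraries, and the groups did not overlap under any treatment. The log2 fold changes of KO against WT were -1.32 ± 0.15 (SE) under IL4, -1.04 ± 0.14 (SE) under Dex and -1.15 ± 0.16 (SE) under vehicle. No source used here gives the position of the deleted exon, so the peak does not check the deletion, and it was named after its values had been seen.

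Several of the largest differences between genotypes were called under all 3 treatments. The peak 167 kb downstream of Tmem74, a gene linked to autophagy (chr15:43703193-43703715), had 12.6, 15.3, 13.2 and 14.7 CPM in KO vehicle libraries, against 0.538, 1.01, 0.641 and 0.618 CPM in WT vehicle libraries. KO exceeded WT in every library, with log2 fold changes of 3.95 ± 0.19 (SE) under IL4, 4.48 ± 0.20 (SE) under Dex and 4.34 ± 0.21 (SE) under vehicle. The Emc2 peak chr15:43638442-43638711, in the same stretch of chromosome 15 and beside a gene for a subunit of a membrane insertion complex, was higher in KO under vehicle by 2.37 ± 0.28 (SE) and fell with both treatments in both genotypes. It had 0.895, 0.894, 0.944 and 0.83 CPM in KO Dex libraries, against 2.36, 4.83, 3.53 and 5.87 CPM in KO vehicle libraries, a log2 fold change of -2.26 ± 0.26 (SE) with Dex, beside -2.24 ± 0.26 (SE) with IL4. A peak beside Tle3, a corepressor gene (chr9:61638959-61639216), was higher in KO by 2.92 ± 0.27 (SE) under IL4, 2.60 ± 0.24 (SE) under Dex and 3.07 ± 0.32 (SE) under vehicle.

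Some members were nearly absent in KO. The peak 181 kb upstream of Zc3h12c, an RNA-binding protein gene (chr9:52349284-52349500), had 0 counts in all KO libraries and 1.92, 1.45, 1.71 and 1.34 CPM in WT vehicle libraries. Set against a floor of 3 counts over the group, it was at least 28.5-fold lower in KO under IL4, 19.4-fold under Dex and 22.2-fold under vehicle. A peak inside Diaph2 (chrX:130106407-130106915) had 1 count in the 4 KO libraries of each treatment, against 2, 1.79, 2.56 and 2.37 CPM in WT vehicle libraries. The ratio of KO to WT was 0.00604 under IL4 (exact 95% interval 0.000152 to 0.0341), 0.0065 under Dex (0.000164 to 0.0368) and 0.0113 under vehicle (0.000283 to 0.0647), and these intervals cover counting error only. A peak beside Mir467h (chr9:115547794-115548410) had 1.25, 0.982, 0.885 and 0.782 CPM in KO IL4 libraries, against 12.7, 11.1, 13.2 and 10.5 CPM in WT IL4 libraries, a log2 fold change of -3.60 ± 0.18 (SE), beside -2.67 ± 0.21 (SE) under vehicle. Inside Ext1, a heparan sulfate polymerase gene, a peak (chr15:53134263-53134576) was lower in KO by -3.39 ± 0.25 (SE) under Dex, and it rose with Dex in WT by 1.11 ± 0.19 (SE).

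A member with a large difference between genotypes under IL4 and vehicle was not called under Dex. The peak beside 4931420L22Rik (chr16:70874139-70874404) had 4.22, 3.78, 3.36 and 2.97 CPM in KO IL4 libraries, against 0.413, 0.176, 0.612 and 0 CPM in WT IL4 libraries, a log2 fold change of 3.61 ± 0.37 (SE). Under Dex the difference was 0.45 ± 0.49 (SE) (adjusted p 0.827) and under vehicle 2.99 ± 0.61 (SE). The interaction with IL4 was 0.62 ± 1.04 (SE) and that with Dex -2.55 ± 0.83 (SE), and neither passed the test.

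The members with the highest levels moved little. The peak 1195 kb downstream of Lrrc4c, which encodes a netrin ligand (chr2:98662240-98662949), had 664, 482, 519 and 410.2 CPM in KO IL4 libraries, 648, 420.2, 410.4 and 382 CPM in KO Dex libraries and 737, 392.5, 673 and 502 CPM in KO vehicle libraries. Its WT libraries overlapped with these and no comparison was called. The highest mean level among the members was 475.8 CPM, against a median of 3.03 CPM. Whether reads from repeated sequence add to the level of the Lrrc4c peak was not tested, so it may not measure accessibility. Without this peak the share of counts in far distal peaks was 3.08 ± 0.063% with IL4 and 2.69 ± 0.053% with vehicle in KO, and 3.14 ± 0.067% and 2.69 ± 0.038% in WT (SD, n = 4 each). Also among the highest in WT vehicle were peaks beside Pex2, a peroxisome assembly gene, Pcmtd1, 6820431F20Rik and Med13l, a Mediator subunit gene. The Med13l peak (chr5:118404286-118404947) had 57.6, 71.2, 60 and 74.6 CPM in KO IL4 libraries, against 52, 50.5, 47.6 and 54.1 CPM in KO vehicle libraries, a log2 fold change of 0.37 ± 0.08 (SE). The Pcmtd1 peak (chr1:7397627-7398476), which holds the start site of the lncRNA Gm26901, fell with IL4 by -0.17 ± 0.06 (SE) in KO and -0.18 ± 0.07 (SE) in WT, values that turned positive with offsets fitted to the mean level, and both calls were lost with total-count scaling and without several single libraries (adjusted p up to 0.13 in KO and 0.147 in WT).

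The shares by distance showed no step at 100 kb. The members nearest to it lay beside Clic5, Il7r and Irs2, with log2 fold changes with IL4 in WT of 0.90, 0.38 and 0.62. The Il7r call was lost without WT IL4 replicate 2 or WT vehicle replicate 4 (edgeR adjusted p up to 0.0743). The nearer distal peaks closest to the limit lay beside Ninj2, Kat6b and Meis2, with -0.06, 0.85 and 1.12.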

How the data were processed

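ATAC-seq was performed on macrophages in 24 libraries, and the deposited table gives raw counts per peak for 144411 peaks. Per the submitters' processing notes the authors used fastp, Bowtie2, SAMtools, MACS2, featureCounts and edgeR with mm10. The peak distances, nearest genes and FANTOM identifiers are those of the authors' deposited table of log2 fold changes and p-values, whose values were used only for comparison. From the deposited counts, 1 edgeR quasi-likelihood model (4.0.16, R 4.3.3) was fitted to all 24 libraries with TMM scaling, after filterByExpr kept 130103 peaks. P-values were adjusted by Benjamini-Hochberg over all of them, and peaks with adjusted p below 0.05 were called. Levels are CPM. The tests were checked on simulated data. DESeq2 (1.42.0), other scalings, other distance limits and leaving out each library were alternatives.

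The members and gene lists were chosen with earlier results of these data known. Peaks named in the text are those with the largest rises and falls whose groups did not overlap in the comparison that chose them, the largest genotype differences, the highest levels, those nearest to the distance limit, and those with the smallest WT p in each list. Peaks in the RefSeq start-site windows, the Ncoa2 peak and the extremes within the Klf4, Mir6388 and Pde4d stretches were chosen after their values were seen. Replicate numbers did not meet the rule for pairing and were left out of the main model. Pairing within a genotype stays possible, since in 46 of 48 combinations a library correlated best with its own number. Such pairing was not modelled.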

Additional observations from a re-analysis of the deposited data

Results flagged for a closer look

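Of 83 groups of 4 values looked at, 6 held a library whose gap to its nearest neighbour exceeded Dixon's limit for 4 values, where chance alone gives about 1 in 20. At the Inhba peak, WT vehicle replicate 1 was the highest of its group at 6.14 CPM. At the 1700016G22Rik peak, WT Dex replicate 1 was the highest at 0.915 CPM. At the Basp1 peak, WT IL4 replicate 2 was the highest at 0.936 CPM. At the Angpt1 peak, WT vehicle replicate 2 was the lowest at 0.112 CPM. At the Mir3961 peak, KO IL4 replicate 1 was the lowest at 6.23 CPM and WT IL4 replicate 2 the highest at 10.7 CPM.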

How the results depend on the processing

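The percentages of far distal peaks called with IL4 or Dex against vehicle stayed within 1.5 times the reported values under every alternative run. The far share exceeded the nearer distal share by 3.56 to 5.76 percentage points for IL4 rises in KO and 3.79 to 5.02 in WT, and for Dex falls by 1.37 to 2.38 in KO and 1.86 to 3.32 in WT. Percentages lower in KO than WT moved. Under IL4 they were 0.406 with DESeq2, under Dex 0.406 with DESeq2 and 0.391 beyond 200 kb, and under vehicle 0.147 beyond 200 kb. Leaving out 1 library gave 0.439 to 0.731 under IL4 (0.455 without WT IL4 replicate 1 and 0.439 without WT IL4 replicate 2), 0.439 to 0.812 under Dex (lowest without KO Dex replicate 1) and 0.211 to 0.357 under vehicle (lowest without WT vehicle replicate 3). No member was called with a smaller IL4 effect in KO than in WT. Such calls were 0.00711% of the wider set with a limit of 50 kb. They were 0.0144% of the set with FANTOM peaks included, and in both sets they fell outside the members. The cause was not tested.

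Median log2 fold changes of far distal peaks with total-count scaling were 0.17 for IL4 and -0.10 for Dex in KO, and 0.21 and -0.09 in WT. Those of nearer distal peaks were 0.07 and -0.06 in KO, and 0.11 and -0.05 in WT. With offsets fitted to the mean level, far distal medians were 0.09 for IL4 and -0.03 for Dex in KO and 0.09 for IL4 in WT, and nearer distal ones -0.01 for IL4 in KO, and 0.00 for IL4 and -0.02 for Dex in WT. Beyond 200 kb far distal medians were 0.16 and -0.03 in KO and 0.19 for IL4 in WT, with 0.03 for IL4 in nearer distal peaks in KO. With a limit of 50 kb nearer distal medians were 0.01 in KO and 0.04 in WT for IL4. Leaving out 1 library gave far distal medians of -0.05 to -0.03 for Dex in KO and 0.14 to 0.18 for IL4 in WT, and nearer distal medians of 0.02 to 0.03 for IL4 in KO and 0.05 to 0.06 in WT. With listed peaks as the denominator, the IL4 ratio of shares was 1.10 in KO and 1.11 in WT. With the fitted offsets, log2 values turned at 6820431F20Rik (0.01 for IL4 in WT, and 0.00 in KO and 0.06 in WT for IL4 against Dex) and Pcmtd1 (0.02 in KO and 0.08 in WT for IL4, and 0.12 in KO and 0.11 in WT for IL4 against Dex). Of 373 calls at named peaks, 326 passed under every alternative and 47 missed under at least 1; those printed above as changes carry the loss beside their value.

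The replicate block joined same-numbered libraries of both genotypes, and between genotypes these correlated at only -0.0673 to 0.0268. Within a genotype, same-numbered libraries correlated at 0.00337 to 0.202, with 9 of 24 pairs over 0.1. Other-numbered libraries within a genotype correlated at -0.123 to 0.0575. In 46 of 48 combinations a library correlated best with its own number. This is a hint of pairing within a genotype, from the data and not the design, and a block within each genotype was not fitted. With the replicate block, 28.9% rose and 10.4% fell with IL4 in KO, and 31.3% and 12.5% in WT. With Dex 10.2% rose and 11.5% fell in KO, and 11.5% and 13.9% in WT. IL4 against Dex gave 34.9% and 15.2% in KO, and 37% and 16.5% in WT. KO against WT gave 1.14% and 0.747% under IL4, 1.02% and 0.959% under Dex, and 0.731% and 0.39% under vehicle, and both interactions gave 0. Depth, 5820149 counts in the shallowest library, limits what can be called among peaks near 1 CPM.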
